A study of Astyanax mexicanus with 12 samples.

Results

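Ovaries of Tinaja cavefish were compared with ovaries of surface fish of the same species, Astyanax mexicanus, in fish that had not been starved. The Tinaja group held 3 control females and the surface group 3 control females, taken by their group labels from the 12 libraries of the series. The other 6 libraries come from starved females of the same populations, and the same contrast was also taken in them. All fish were about 660 days old after fertilisation, were labelled wild type, and gave their right ovary; the control fish were labelled non-treated. The labels name no stock, tank, extraction batch or stage of the ovary, so differences of these kinds cannot be told apart from differences between the populations. They also do not say how the samples of a group relate to each other, so p-values measure only the spread between samples within groups. That spread was estimated over all 12 libraries, those of starved fish included.

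Astyanax mexicanus lives as eyed, pigmented surface fish and as cave populations with reduced eyes and pigment, of which Tinaja is one. A fish ovary holds oocytes of many stages, each wrapped in follicle cells: granulosa cells next to the oocyte and theca cells outside them, which make steroid hormones together. Growing oocytes store maternal RNA for the embryo, so a large share of the RNA of a whole ovary is oocyte RNA.

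Gene reads ranged over libraries from 6496339 to 6923563 in Tinaja ovaries and from 7152581 to 8286320 in surface ovaries, and 14627 genes of 27420 were tested. Oocyte genes were abundant in every library. The zygotic-arrest gene zar1 had 636, 656 and 892 CPM in Tinaja ovaries, against 740, 597 and 629 CPM in surface ovaries (CPM, the unit used throughout, corrects reads for library size). The germ-cell helicase ddx4 had 560, 640 and 749 CPM in Tinaja ovaries, against 584, 536 and 592 CPM in surface ovaries. Both groups therefore carried the defining markers of the labelled tissue, and neither gene was called. On the first principal component, with 74.0% of the variance over 2000 variable genes, Tinaja ovaries scored 56.9 to 61.5 and surface ovaries -62.6 to -54.4. The second component, with 8.81%, set Tinaja control 1 (30.2) and surface control 1 (25.6) apart from the other control libraries (-23.0 to -8.70). Correlations of log2 CPM were 0.961 to 0.973 within Tinaja ovaries, 0.963 to 0.973 within surface ovaries and 0.875 to 0.888 between the populations.

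Ovarian transcripts differed widely between the populations, with similar numbers of genes called in each direction. Of the 14627 genes tested, 4738 (32.4%) passed an adjusted p of 0.05, with 2344 (16.0%) higher and 2394 (16.4%) lower in Tinaja ovaries, and these are the genes referred to below as called. The median log2 fold change over all genes tested was 0.00. The scaling of the libraries tends to place this median near 0, so the balance of directions depends in part on it. With upper-quartile scaling, 54.9% of calls were higher, against 49.5% here. At least a 2-fold difference was seen in 2120 called genes (14.5% of those tested), 1156 higher and 964 lower, and at least a 4-fold difference in 1217 (8.32%), 704 higher and 513 lower. At least a 16-fold difference was seen in 395 genes, 231 higher and 164 lower. At an unadjusted p under 0.05, 6326 genes passed. The 3 libraries of one population all stood above or all below those of the other in 6877 genes (47.0%), of which 4587 were called. In whole-ovary RNA, fewer cells of a type and less RNA per cell cannot be told apart.

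The size of a called difference went with the level of the gene, while the share of genes called did not. Between 30.0% and 34.3% of genes were called in every class of mean level from 1 CPM up. Among called genes averaging 3 to 10 CPM, 85.3% differed at least 2-fold; among those averaging 30 to 100 CPM it was 16.9%, and at 300 CPM or more it was 2.29%, or 4 genes. Called genes with abundant transcripts mostly differed by less than 2-fold, and among genes under 3 CPM each called difference was at least 2-fold, since smaller ones were not detectable at this depth.

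**Figure D1:**
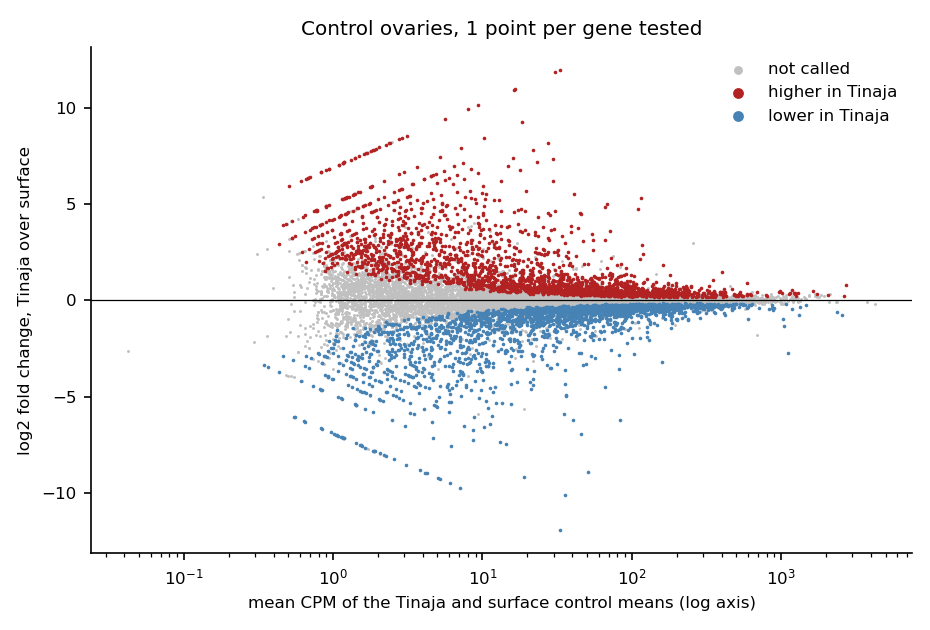
Log2 fold change of Tinaja over surface control ovaries against the mean level in CPM (log axis), with 1 point for each of the 14627 genes tested; red points are the 2344 called higher in Tinaja ovaries and blue points the 2394 called lower. The spread of called differences narrows towards high levels, and the slanted lines at the left are genes with 0 reads or a few reads in 1 population.

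The largest rises were genes close to unread in surface ovaries. The membrane and actin-binding protein gene clmnb had 95.3, 57.8 and 45.2 CPM in the Tinaja libraries and no read in the 3 surface libraries, which puts it at least 505-fold higher when 3 counts over the group stand for the absent reads. The mapping reference is not known here; for this and the other genes with few or no reads in 1 population, such as lrit3a and CDH13 below, little transcript cannot be told apart from transcript whose sequence differs from that reference. Such a bound falls with the depth of the empty group, to 323 for clmnb without surface control 1, the deepest library. The cell-adhesion gene cdh7a had 39.7, 35.4 and 35.6 CPM in Tinaja ovaries, against 0.121, 0 and 0 CPM in surface ovaries. That is a ratio of 847 with a 95% counting interval of 152 to 33500, and its single surface read lay in surface control 1, without which it was at least 180-fold higher. The groups of neither gene overlapped, which the choice of the largest rises and falls required.

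Subunits of glutamate receptors were among these rises. GRIN2B, a subunit of the NMDA-type glutamate receptor of neurons, had 40.8, 80.9 and 43.8 CPM in Tinaja ovaries, against 0.121, 0.136 and 0.274 CPM in surface ovaries (log2 fold change 8.17, SE 0.615, adjusted p = 5.82e-06). Its sister subunit GRIN2A had 4.27, 8.04 and 2.05 CPM in Tinaja ovaries and no read in surface ovaries, at least 36.8-fold higher, and at least 24.1-fold without Tinaja control 2. A second gene of this kind, grin2bb, which was looked up after these values were seen, had 33.7, 38.5 and 33.2 CPM in Tinaja ovaries, against 0.362, 0.814 and 2.74 CPM in surface ovaries (log2 fold change 4.76, adjusted p = 8.95e-05; 5.89 without surface control 3). No library of either group overlapped the other for the 3 genes, which the choice of the largest rises required for GRIN2B and GRIN2A. Of the general neuron markers tested, 0 of 5 were higher and 2 were lower (40.0% called, against 32.4% of all genes). SV2A had 0.536 ± 0.427 CPM in Tinaja ovaries and 6.63 ± 1.47 CPM in surface ovaries (SD, n = 3 each, log2 fold change -3.59, and -4.44 without Tinaja control 1). The summed level of the 25 neuron markers was 11.1 to 14.1 CPM in Tinaja ovaries and 18.1 to 24.7 CPM in surface ovaries, with GAD1, gad1b, neflb, nefmb, slc17a6a, slc17a6b and slc32a1 at 0 reads in all 6 libraries.

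Other genes of the 12 largest rises had similar patterns at lower levels. Six7, a homeobox gene known in zebrafish from photoreceptor development, had 9.71, 14.2 and 9.66 CPM in Tinaja ovaries and no read in surface ovaries, at least 85.8-fold higher. ODAD2, which docks dynein arms in cilia, was at least 47.9-fold higher, SOGA3 at least 34.6-fold and the potassium-channel gene kcnk10a at least 29.7-fold, again without a surface read. The selenoprotein gene selenoo2 had 20.4, 16.6 and 24.4 CPM in Tinaja ovaries, against 0.121, 0 and 0 CPM in surface ovaries, a ratio of 470 (84.0 to 18620), and at least 100.1-fold higher without surface control 1, which held the single read. The elastase gene ela3l was highest in 1 library, with 8.97 CPM in Tinaja control 1, against 0.717 and 1.02 CPM in Tinaja control 2 and 3 and 0 reads in surface ovaries (at least 27.1-fold higher, or 6.65-fold without Tinaja control 1; adjusted p = 0.00835, or 0.0567 in a fit of the 6 control libraries alone). Impdh1a, a copy of the enzyme that limits guanine nucleotide synthesis, had 5.59, 6.60 and 5.27 CPM in Tinaja ovaries and no surface read. Its adjusted p was 0.0270, and 0.0556 to 0.0636 with any 1 of the 6 libraries left out. The GABA-receptor gene GABRR3 had 3.68, 4.74 and 1.76 CPM in Tinaja ovaries and no surface read (adjusted p = 0.0366; 0.0621 to 0.0875 with any 1 library left out).

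The largest falls mirrored this. Lrit3a, which encodes a leucine-rich repeat protein known from retinal synapses, had no read in the 3 Tinaja libraries, against 78.8, 56.6 and 61.5 CPM in surface ovaries, at least 455-fold lower. CDH13, a cadherin anchored in the membrane by a lipid, had 0.294, 0.143 and 0.146 CPM in Tinaja ovaries, against 109, 101 and 95.0 CPM in surface ovaries (log2 fold change -8.91, SE 0.22, adjusted p = 1.39e-10). Ahsg2, a fetuin gene of blood plasma, had 0, 0.143 and 0 CPM in Tinaja ovaries, against 37.9, 51.8 and 24.7 CPM in surface ovaries, a ratio of 786 (141 to 31080), and at least 173-fold lower without Tinaja control 2, which held the single read. In all 3 genes the lowest surface library was far above the highest Tinaja library. Groups without overlap were a condition of the choice of the largest falls.

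Receptor and transport genes were also among the largest falls. NTRK2, the receptor of the nerve growth factor BDNF, had no read in Tinaja ovaries, against 6.87, 12.1 and 12.2 CPM in surface ovaries, at least 70.3-fold lower. MFSD12, a transporter of lysosomes and pigment granules, had 0, 0.143 and 0.293 CPM in Tinaja ovaries, against 17.8, 30.0 and 30.8 CPM in surface ovaries, a ratio of 178 (60.5 to 864), or 356 (63.7 to 14090) without Tinaja control 3. Its relative mfsd12a, looked up after these values were seen, had 16.9, 18.4 and 16.5 CPM in Tinaja ovaries, against 15.6, 12.9 and 10.7 CPM in surface ovaries, and was not called (adjusted p = 0.181). Both genes named cibar1, which encodes a protein of the ciliary base, were lower. The first had no Tinaja read, against 11.2, 11.1 and 14 CPM in surface ovaries, and the second had 0.147, 0.143 and 0.146 CPM in Tinaja ovaries, against 15.7, 16.6 and 18.9 CPM in surface ovaries. Reads could be divided between 2 genes of one symbol, so their separate values are uncertain.

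Without a Tinaja read were also ptprja, a receptor phosphatase (at least 70.0-fold lower), plpp7a (at least 51.7-fold), LRRC73 (at least 43.1-fold) and the small GTPase gene arl11 (at least 25.7-fold). The odorant-receptor gene or70a15 had no read in Tinaja ovaries, against 8.20, 8.28 and 8.91 CPM in surface ovaries, at least 58.0-fold lower. Its adjusted p was 0.0240, and 0.0528, 0.0548 and 0.0558 without Tinaja control 1, 2 and 3.

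Counted over the whole table of 27420 genes, 241 genes had at least 1 read in each Tinaja control library and none in the 3 surface control libraries, and 188 had the reverse. With at least 10 reads in each library of the population that held them, 22 genes were read in Tinaja ovaries and 27 in surface ovaries. All of these were called, which their selection on the same reads made nearly certain. Here too, reads that did not match the reference cannot be told apart from absent transcript. Of the 22, 9 had the same pattern in the starved libraries, with a read in each Tinaja library and none in a surface library, and 10 had at least 1 read in a starved surface library. Of the 27, 9 had the same pattern in starved fish and 17 had at least 1 read in a starved Tinaja library. ENSAMXG00000017788, a gene without a symbol chosen after its values were seen, had 67.7, 62.3 and 54.0 CPM in Tinaja ovaries and no surface read, at least 469-fold higher.

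Among genes averaging at least 20 CPM, the smallest adjusted p in Tinaja-high genes belonged to slc38a4, an amino acid transporter of the plasma membrane. It averaged 213 ± 6.77 CPM in Tinaja ovaries and 8.01 ± 0.776 CPM in surface ovaries (SD, n = 3 each; log2 fold change 4.73, SE 0.157, adjusted p = 1.99e-09). RELN, which encodes the secreted matrix protein reelin, had 92.1, 102 and 65.0 CPM in Tinaja ovaries, against 3.25, 3.12 and 4.66 CPM in surface ovaries (log2 fold change 4.55). The homeobox gene pbx4 had 116, 131 and 139 CPM in Tinaja ovaries, against 3.98, 4.34 and 5.35 CPM in surface ovaries (log2 fold change 4.82). For all 3 the lowest Tinaja library stood far above the highest surface library, which their choice by small adjusted p in these libraries favoured.

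Matrix, membrane and enzyme genes followed. ANO8, a membrane protein that tethers the endoplasmic reticulum to the plasma membrane, had 50.6, 44.5 and 43.5 CPM in Tinaja ovaries, against 0.241, 0.407 and 0.274 CPM in surface ovaries (log2 fold change 7.17). The matrix proteoglycan gene SPOCK2 averaged 58.5 ± 7.65 CPM in Tinaja ovaries and 2.34 ± 0.777 CPM in surface ovaries, and the carbonic anhydrase gene ca15b 54.0 ± 14.8 and 2.51 ± 0.437 CPM. The membrane protease gene rhbdl2 and brox, a gene of the membrane-remodelling machinery, had log2 fold changes of 3.12 and 2.88. Tgm2b, a protein cross-linking transglutaminase picked after its values were seen, had 214, 237 and 220 CPM in Tinaja ovaries, against 6.99, 4.88 and 4.66 CPM in surface ovaries (log2 fold change 5.33, adjusted p = 5.44e-07). These genes kept their call with any 1 control library left out. They were chosen by small adjusted p in these libraries or after their values were seen, so this adds no support.

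On the lower side, sytl1, an effector of vesicle transport, had 8.83, 9.33 and 9.37 CPM in Tinaja ovaries, against 88.3, 89.3 and 93.1 CPM in surface ovaries (log2 fold change -3.29, SE 0.0838, adjusted p = 1.39e-10). KNTC1, a kinetochore protein that guards chromosome segregation, was the most abundant of these genes. It had 305, 275 and 303 CPM in Tinaja ovaries, against 1912, 1971 and 1895 CPM in surface ovaries (log2 fold change -2.71, adjusted p = 1.79e-09). PHKB, a regulatory subunit of the kinase that switches on glycogen breakdown, had 11, 12.1 and 14.2 CPM in Tinaja ovaries, against 90.8, 91.6 and 98.0 CPM in surface ovaries (log2 fold change -2.91). The groups did not overlap for these 3 genes, and each kept its call with any 1 control library left out. The genes were chosen by their small adjusted p in these same libraries, so neither observation adds support.

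The activin receptor gene acvr2ba had 6.03, 9.90 and 9.37 CPM in Tinaja ovaries, against 87.5, 91.2 and 76.9 CPM in surface ovaries (log2 fold change -3.33, adjusted p = 1.44e-07), and TENT4A, an enzyme that adds tails to RNA, 34.6, 35.0 and 30.6 CPM, against 138, 180 and 139 CPM. ABCE1, a ribosome-recycling factor, had 1.91, 1.29 and 1.76 CPM in Tinaja ovaries, against 38.6, 41.1 and 41.8 CPM in surface ovaries (log2 fold change -4.60, adjusted p = 2.55e-08). A second gene listed as abce1, looked up after these values were seen, was far more abundant in reads and was not called. It had 363, 378 and 410 CPM in Tinaja ovaries, against 334, 386 and 338 CPM in surface ovaries (log2 fold change 0.12, adjusted p = 0.255). The names alone do not say how much sequence the 2 genes share, so how reads were divided between them is uncertain.

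**Figure D2:**
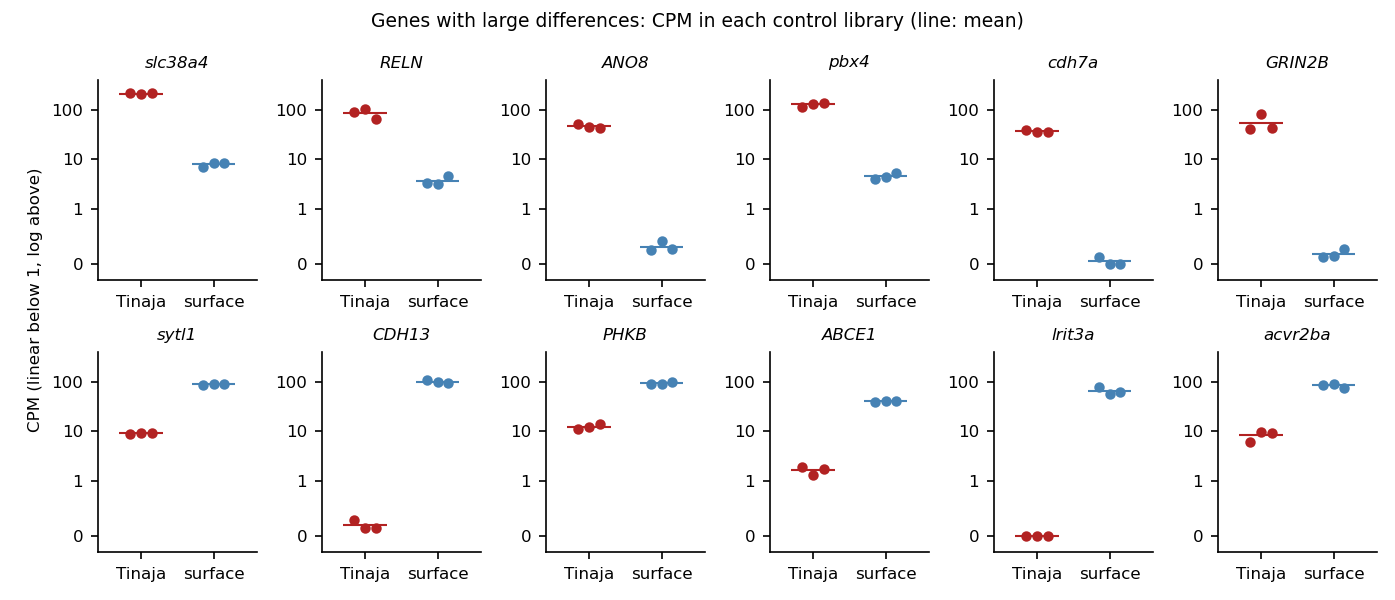
CPM of 12 genes in each control library (linear below 1 CPM, log above), Tinaja ovaries in red at the left of each panel and surface ovaries in blue at the right, with a line at each mean. The top row holds genes higher in Tinaja ovaries and the bottom row genes lower, and no panel has overlapping groups. Groups without overlap were a condition for choosing cdh7a, GRIN2B, CDH13 and lrit3a. The other genes were chosen by small adjusted p in these same libraries. Lrit3a has no read in the 3 Tinaja libraries.

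Genes of the oocyte itself differed about as often as genes in general. Of 32 oocyte regulators tested, 7 were higher and 4 lower in Tinaja ovaries (34.4% called, against 32.4% of all genes), with a median log2 fold change of 0.10. Btg4, which triggers the clearing of maternal RNA, had 700, 702 and 886 CPM in Tinaja ovaries, against 492, 348 and 392 CPM in surface ovaries (log2 fold change 0.89, SE 0.12, adjusted p = 0.000188). The zar1 relative zar1l had 1020, 1038 and 1375 CPM in Tinaja ovaries, against 907, 775 and 788 CPM in surface ovaries (log2 fold change 0.48, adjusted p = 0.00727). The oocyte transcription factor gene lhx8a was lower, with 72.2, 90.5 and 106 CPM in Tinaja ovaries, against 141, 130 and 206 CPM in surface ovaries (log2 fold change -0.83, adjusted p = 0.0045). The groups did not overlap for these 3 genes, which were chosen by small adjusted p in these same libraries. The number of lower members was 1 without surface control 2, Tinaja control 1 or Tinaja control 2, and 2 without surface control 1 or 3.

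Growth factors that oocytes send to granulosa cells differed little. Bmp15 had 109, 112 and 115 CPM in Tinaja ovaries, against 140, 132 and 127 CPM in surface ovaries (log2 fold change -0.24, adjusted p = 0.0377). That call was lost without surface control 1 (0.114) or 2 (0.0782) and without Tinaja control 1 (0.101), 2 (0.0828) or 3 (0.0609). Gdf9, its partner, had 55.8, 52.2 and 61.8 CPM in Tinaja ovaries, against 66.3, 66.8 and 68.5 CPM in surface ovaries, and was not called (adjusted p = 0.0509). Neither gene's groups overlapped, and the differences were small.

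Of 9 egg-coat genes, which encode the zona pellucida proteins of the egg envelope, 0 were higher and 1 was lower. That is 11.1% called, against 32.4% of all genes. A positive log2 fold change was seen in 2 of 9, against 7351 of all 14627 genes tested. The lower gene, zp3f.1, had 79.1, 96.8 and 123 CPM in Tinaja ovaries, against 159, 162 and 162 CPM in surface ovaries (log2 fold change -0.69, adjusted p = 0.00877). Without Tinaja control 3 there were 3 lower members and without surface control 3 there were 2, and 1 member was higher without surface control 1 or Tinaja control 1.

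Meiosis genes were called in both directions: 5 of 20 were higher and 6 lower (55.0% called, against 32.4% of all genes). Spo11, the enzyme that cuts DNA to start recombination, had 36.6, 44.8 and 48.3 CPM in Tinaja ovaries, against 3.50, 1.90 and 7.26 CPM in surface ovaries (log2 fold change 3.36, adjusted p = 0.00224; 3.98 without surface control 3). The meiotic cohesin rec8b had 2.21, 2.3 and 3.51 CPM in Tinaja ovaries, against 0, 0 and 0.137 CPM in surface ovaries, a ratio of 61.3 (10.6 to 2465), or 39.2 (6.74 to 1574) without surface control 1 and at least 13.9-fold without surface control 3, which held the single read. Another meiotic cohesin gene, rad21l1, was lower, with 7.94, 12.1 and 17.6 CPM in Tinaja ovaries, against 22.1, 29.6 and 30.6 CPM in surface ovaries (log2 fold change -1.13, adjusted p = 0.00256), as was mnd1, a recombination cofactor (log2 fold change -0.86). Fewer members were lower without surface control 3 (2) or Tinaja control 1 (3), and 3 were higher without surface control 2 or Tinaja control 2.

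In the piRNA pathway, which silences transposons in germ cells, 2 of 16 genes were higher and 3 lower (31.2% called, close to the 32.4% of all genes). The germ-granule gene tdrd7b had 0.736, 0.287 and 0.293 CPM in Tinaja ovaries, against 5.67, 6.65 and 7.95 CPM in surface ovaries (log2 fold change -3.90, adjusted p = 7.64e-05), while its helicase relative tdrd9 was slightly higher (284 ± 27.5 and 227 ± 7.09 CPM; log2 fold change 0.33, adjusted p = 0.00376). Without surface control 1, surface control 3 or Tinaja control 3, 1 member was higher.

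Of 19 steroid enzymes and carriers, 3 were higher and 1 lower (21.1% called, against 32.4% of all genes). Cyp17a1, the enzyme that makes androgens in theca cells, had 4.56, 5.17 and 3.66 CPM in Tinaja ovaries, against 0.241, 1.36 and 1.1 CPM in surface ovaries (log2 fold change 2.31, SE 0.519, adjusted p = 0.00516). Hsd17b12b, a steroid and fatty acid reductase, had 19.0, 15.6 and 17.1 CPM in Tinaja ovaries, against 6.51, 4.21 and 4.66 CPM in surface ovaries (log2 fold change 1.74), and tspo, the mitochondrial cholesterol-binding protein, 14.9 ± 3.36 CPM in Tinaja ovaries and 6.08 ± 3.03 CPM in surface ovaries (log2 fold change 1.28). The lower member, the dehydrogenase gene hsd17b8 (5.00, 6.46 and 3.07 CPM in Tinaja ovaries, against 11.2, 11.8 and 12.5 CPM in surface ovaries; -1.28, adjusted p = 0.0362), lost its call without any 1 library but Tinaja control 2 (0.0625 to 0.122).

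Lhcgr, the luteinising hormone receptor, had 14.1, 15.1 and 10.1 CPM in Tinaja ovaries, against 5.55, 4.75 and 4.25 CPM in surface ovaries (log2 fold change 1.43, adjusted p = 0.0168), and the call was lost without surface control 2 (0.0505), surface control 3 (0.0563) or Tinaja control 2 (0.0529). Not called were the follicle-stimulating hormone receptor fshr (4.41, 4.16 and 1.32 CPM in Tinaja ovaries, against 1.69, 2.17 and 2.60 CPM in surface ovaries), the progesterone receptor pgr (17.3 ± 5.61 and 11.5 ± 1.54 CPM), aromatase cyp19a1a (1.65 ± 0.937 and 1.51 ± 0.373 CPM) and the gonadal growth factor igf3 (4.16 ± 2.04 and 1.47 ± 0.336 CPM; adjusted p = 0.0626). The cholesterol carrier gene star had too few reads to be tested. At these levels a library holds few reads per gene, which limits the precision of these values.

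The marker lists of the same cells were small. Of 9 granulosa markers tested, 2 were higher and 0 lower (22.2% higher, against 16.0% of all genes, and 22.2% called, against 32.4%). Of 4 theca markers, 2 were higher and 0 lower (50.0% higher). The summed level of the 26 granulosa markers in the table was 33.2 to 52.4 CPM in Tinaja ovaries and 30.2 to 32.4 CPM in surface ovaries, with runx1 at 0, and that of the 8 theca markers 11.9 to 16.9 CPM in Tinaja ovaries and 6.87 to 10.7 CPM in surface ovaries. The granulosa calls numbered 0 without surface control 2 or Tinaja control 2 and 1 without surface control 1, surface control 3 or Tinaja control 1, and the theca calls 1 without surface control 1 or 2 or Tinaja control 1 or 2. The part of cell makeup in the follicle-cell results was not tested.

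Of 45 hormone receptors, 8 were higher and 5 lower (28.9% called, against 32.4% of all genes). Beside acvr2ba, the mineralocorticoid receptor nr3c2 was lower (0.588, 0 and 0.586 CPM in Tinaja ovaries, against 8.08, 5.97 and 5.07 CPM in surface ovaries; log2 fold change -3.98, adjusted p = 0.000303). The receptor gene tgfbr1b of the TGF-beta family was higher (29.4, 21.2 and 17.0 CPM in Tinaja ovaries, against 2.17, 2.17 and 1.51 CPM in surface ovaries; log2 fold change 3.52, adjusted p = 2.69e-06). The adiponectin receptor adipor2 was lower by less (log2 fold change -0.60) and the BMP receptor bmpr1aa higher by less (0.48). The number of higher members was 4 without surface control 2, surface control 3 or Tinaja control 2. Lepr, the leptin receptor, had 28.5, 30.4 and 23.1 CPM in Tinaja ovaries, against 19.1, 24.7 and 21.7 CPM in surface ovaries, and was not called (adjusted p = 0.135).

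The circadian clock runs as a loop in which Clock and Bmal proteins switch on Per, Cry and Rev-erb genes, whose products then hold them back. Of 40 clock genes tested, 9 were higher and 10 lower in Tinaja ovaries (47.5%, against 32.4% of all genes). In the activating arm, 4 genes described next were lower, and clocka and npas2 were not called. Arntl2, a Bmal gene, had 29.3, 30.1 and 31.9 CPM in Tinaja ovaries, against 87.2, 92.1 and 98.0 CPM in surface ovaries (log2 fold change -1.60, SE 0.104, adjusted p = 5.05e-07). Clockb had 37.8, 35.3 and 31.6 CPM in Tinaja ovaries, against 57.9, 80.6 and 71.3 CPM in surface ovaries (log2 fold change -1.0, adjusted p = 0.000122), and bmal1a, named after its values were seen, 34.7, 35.4 and 31.2 CPM, against 69.9, 60.1 and 59.8 CPM (log2 fold change -0.91, adjusted p = 0.000203). Its copy bmal1b, named likewise, differed less (log2 fold change -0.42, adjusted p = 0.0323) and lost its call without surface control 1 (0.0731) or 3 (0.0852) or Tinaja control 1 (0.0906) or 3 (0.117), whereas clocka was not called (log2 fold change -0.06).

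Genes of the repressing arm were divided. The period gene per2, which light induces in fish, had 113, 81.3 and 78.2 CPM in Tinaja ovaries, against 50.2, 69.8 and 41.1 CPM in surface ovaries (log2 fold change 0.76, adjusted p = 0.00822). The cryptochrome gene cry1a had 52.7, 51.2 and 48.8 CPM in Tinaja ovaries, against 76.4, 86.2 and 88.7 CPM in surface ovaries (log2 fold change -0.72, adjusted p = 6.98e-05). The photolyase cry5, a relative of the cryptochromes, is a light-driven DNA repair enzyme and is not counted here as part of the repressing arm. It had 84.1, 95.1 and 104 CPM in Tinaja ovaries, against 51.8, 55.8 and 57.3 CPM in surface ovaries (log2 fold change 0.78, adjusted p = 4.77e-05). The Rev-erb gene nr1d2b was higher, with 36.6, 39.3 and 40.7 CPM in Tinaja ovaries, against 25.4, 11.8 and 11.4 CPM in surface ovaries (log2 fold change 1.25), and its copy nr1d2a, also named after its values were seen, lower, with 14, 6.89 and 11 CPM, against 50.3, 17.4 and 27.4 CPM (log2 fold change -1.58, adjusted p = 0.0264). The nr1d2a call was lost without surface control 1 (0.0941) or Tinaja control 2 (0.0875) or 3 (0.0714). The copies of this receptor thus differed in opposite directions.

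Output genes of the clock that bind D-box DNA were divided as well. Tefb had 33.7, 33.1 and 32.1 CPM in Tinaja ovaries, against 58.8, 58.9 and 55.7 CPM in surface ovaries (log2 fold change -0.81, adjusted p = 2.40e-05), and hlfb 7.94, 4.16 and 5.71 CPM, against 0.121, 0.407 and 0.137 CPM (log2 fold change 4.66, adjusted p = 8.20e-05; 5.36 without surface control 2). The hour at which the ovaries were taken was not in the labels, and its part in these values was not tested.

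**Figure D3:**
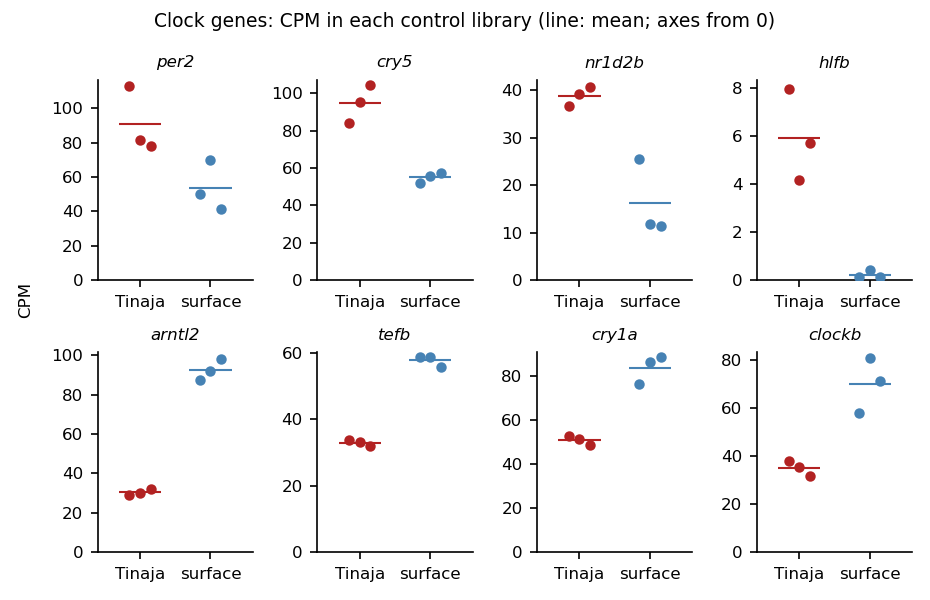
CPM of 8 clock genes in each control library, with axes from 0, Tinaja ovaries in red at the left of each panel and surface ovaries in blue at the right, and a line at each mean. The top row holds genes higher in Tinaja ovaries and the bottom row genes lower, with arntl2 at 29.3 to 31.9 CPM in Tinaja ovaries and 87.2 to 98.0 CPM in surface ovaries.

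Gene lists for protein-making and mitochondria had small medians, with larger differences in single genes. Of 81 genes for cytosolic ribosomal proteins, 14 were higher and 1 lower. A positive log2 fold change was seen in 66 of them, against 7351 of all 14627 genes tested, with a median of 0.17 against 0.00 for all genes. The summed level of the 84 such genes in the table overlapped, with 17000, 17220 and 20720 CPM in Tinaja control 1 to 3 and 17570, 15480 and 15840 CPM in surface control 1 to 3. The 17.3% called higher was close to the 16.0% of all genes, while the 1.23% called lower was under the 16.4% of all genes. Rps10 had 264, 279 and 317 CPM in Tinaja ovaries, against 198, 180 and 177 CPM in surface ovaries (log2 fold change 0.63, SE 0.0904, adjusted p = 0.00027), rplp2 averaged 64.8 ± 3.3 CPM in Tinaja ovaries and 40.6 ± 0.288 CPM in surface ovaries (0.68), and rps9, the lower gene, 179 ± 21.4 and 244 ± 22.1 CPM (-0.44). The higher members numbered 6 without surface control 2, surface control 3 or Tinaja control 3, and without Tinaja control 3 there were 3 lower members.

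Of 92 nuclear genes for oxidative phosphorylation, the oxygen-using step of mitochondrial energy supply, 24 were higher and 11 lower (26.1% higher, against 16.0% of all genes, and a share lower under the 16.4% of all genes), with a median of 0.12. The complex I genes ndufc1 (28.5, 30.0 and 33.1 CPM in Tinaja ovaries, against 13.0, 10.7 and 11.9 CPM in surface ovaries; log2 fold change 1.36, adjusted p = 3.52e-05) and ndufaf7 (34.1, 33.6 and 33.2 CPM, against 17.1, 15.9 and 17.8 CPM; 0.99) had the smallest adjusted p among the higher members. Of complex I as well, ndufs8a was lower (41.6 ± 3.00 CPM in Tinaja ovaries and 57.4 ± 5.52 CPM in surface ovaries; -0.47). There were 11, 15 and 13 higher members without surface control 2, surface control 3 and Tinaja control 3, and 6 and 5 lower members without surface control 3 and Tinaja control 2. Over all 14627 genes, higher calls fell from 2344 to 1803, 1784 and 1852 in the same order, and lower calls from 2394 to 1935 and 1918. Without surface control 2, the share of the list called higher was thus not above that of all genes.

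Mitochondrial ribosomal proteins had 14 of 74 genes higher and 6 lower (27.0% called, against 32.4% of all genes), with a median of 0.15. Mrps34 had 54.7, 62.4 and 69.1 CPM in Tinaja ovaries, against 18.4, 16.4 and 18.6 CPM in surface ovaries (log2 fold change 1.80, adjusted p = 7.98e-07), and mrps28 25.1, 24.4 and 36.8 CPM, against 67.5, 57.9 and 89.1 CPM (-1.31, adjusted p = 0.000188). Higher members numbered 8 without surface control 2 and 9 without Tinaja control 2, and lower members 3 without surface control 1, surface control 3 or Tinaja control 2. The proteasome, which degrades tagged proteins, had 8 of 51 genes higher and 4 lower (23.5% called, against 32.4% of all genes). The amounts were small apart from the activator psme2 (2.35, 1.00 and 1.61 CPM in Tinaja ovaries, against 15.6, 13.2 and 11.9 CPM in surface ovaries, log2 fold change -3.02, adjusted p = 2.98e-05). Without surface control 3, 2 members were lower.

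Of 58 genes of glycolysis and gluconeogenesis, 12 were higher and 9 lower, and their 36.2% called was close to the 32.4% of all genes. Pdha1a, a subunit of the enzyme that feeds pyruvate into the mitochondrial cycle, had 195, 182 and 203 CPM in Tinaja ovaries, against 108, 82.1 and 105 CPM in surface ovaries (log2 fold change 0.97, adjusted p = 1.03e-05). Pdk4, the kinase that switches that enzyme off, was also higher (9.71, 5.88 and 10.2 CPM, against 1.33, 0.543 and 1.1 CPM; 3.09). Pck2, the mitochondrial enzyme of glucose synthesis, was lower, with 55.3, 55.4 and 76.1 CPM in Tinaja ovaries, against 231, 160 and 183 CPM in surface ovaries (log2 fold change -1.62, adjusted p = 5.40e-05). Gyg1b, the protein on which glycogen chains start, picked after its values were seen, had 55.8, 44.6 and 51.1 CPM, against 205, 224 and 201 CPM (-2.05), and PHKB of glycogen breakdown was lower, as given above.

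Of 75 lipid genes, 16 were higher and 14 lower (40.0% called, against 32.4% of all genes). Scd, the desaturase that makes monounsaturated fatty acids, had 13.4, 9.33 and 8.35 CPM in Tinaja ovaries, against 0.121, 0.407 and 0.685 CPM in surface ovaries (log2 fold change 4.65, adjusted p = 9.38e-05; 5.24 without surface control 3). Elovl4a, an enzyme of very long fatty acids, had 5.59, 4.59 and 6.15 CPM in Tinaja ovaries, against 60.6, 31.6 and 24.9 CPM in surface ovaries (log2 fold change -2.84, adjusted p = 6.96e-05). Acyl-CoA dehydrogenases of fat burning were split, with acadm higher (147, 151 and 145 CPM, against 107, 101 and 103 CPM; 0.51) and acadvl lower (234, 218 and 216 CPM, against 318, 317 and 370 CPM; -0.59). Both copies of the enzyme that limits cholesterol synthesis were lower: hmgcra had 1 read in the 3 Tinaja libraries, in Tinaja control 2, a ratio of 58.3 (10.1 to 2338) or at least 12.9-fold lower without that library, and hmgcrb 42.7 ± 4.47 CPM in Tinaja ovaries and 59.7 ± 3.61 CPM in surface ovaries (-0.48, adjusted p = 0.00243). Without Tinaja control 2, 9 lipid genes were lower.

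Of 61 insulin and mTOR genes, 6 were higher and 10 lower (26.2% called, against 32.4% of all genes). The kinase gene akt3a was higher (19.3, 17.6 and 11 CPM in Tinaja ovaries, against 0.965, 3.12 and 2.60 CPM in surface ovaries; log2 fold change 2.84, adjusted p = 0.000324). The insulin signalling adaptor IRS1 (43.8, 43.8 and 30.7 CPM, against 55.0, 67.8 and 57.7 CPM; -0.61, adjusted p = 0.00464) and the IGF receptor igf1rb (112 ± 7.90 and 148 ± 6.59 CPM; -0.40) were lower. The insulin receptor insra, a gene studied in cavefish for its coding change, was not called (132, 128 and 130 CPM in Tinaja ovaries, against 135, 126 and 99.5 CPM in surface ovaries; adjusted p = 0.41). Without Tinaja control 3, 3 members were higher.

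Nucleotide and one-carbon metabolism held some of the more abundant called genes. Cad, the enzyme that starts pyrimidine synthesis, picked after its values were seen, had 580, 602 and 624 CPM in Tinaja ovaries, against 1466, 1541 and 1500 CPM in surface ovaries (log2 fold change -1.32, SE 0.0763, adjusted p = 2.42e-07). Impdh1b, the other copy of the guanine-nucleotide enzyme, also picked so, was lower, with 126, 133 and 124 CPM, against 180, 178 and 185 CPM (-0.50). Among 34 sulfur and one-carbon genes, 5 were higher and 7 lower (35.3% called, close to the 32.4% of all genes). The mitochondrial folate enzymes were split: mthfd2 had 12.8, 13.5 and 15.4 CPM in Tinaja ovaries, against 40.8, 48.2 and 31.9 CPM in surface ovaries (-1.54, adjusted p = 5.58e-05), and mthfd1l 262, 250 and 261 CPM, against 140, 98.0 and 77.9 CPM (1.29, adjusted p = 0.000179).

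Sqor, which oxidises hydrogen sulfide, had 14, 19.5 and 27.2 CPM in Tinaja ovaries, against 96.2, 149 and 189 CPM in surface ovaries (log2 fold change -2.84, adjusted p = 0.000349). Mat1a, which makes the methyl donor of the cell, had 1.32, 2.3 and 3.07 CPM in Tinaja ovaries, against 63.1, 72.2 and 77.0 CPM in surface ovaries (-4.97, adjusted p = 0.00873). Cbsa, an enzyme that makes cystathionine and hydrogen sulfide, was not called (28.2, 41.6 and 40.1 CPM, against 27.2, 24.3 and 37.1 CPM). Of the list's higher members, 2 were called without Tinaja control 1 and 3 without surface control 3.

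Of 46 antioxidant genes, 10 were higher and 9 lower (41.3% called, against 32.4% of all genes). The thioredoxin reductase txnrd3 had 56.3, 56.8 and 56.2 CPM in Tinaja ovaries, against 110, 133 and 119 CPM in surface ovaries (log2 fold change -1.1, adjusted p = 3.30e-06), GCLC, which limits glutathione synthesis, was lower (-0.72), and the peroxide-removing genes prdx4 (0.73) and gpx1b (0.70) were higher. Fewer members were higher without surface control 2 or 3 (5 each) or Tinaja control 2 or 3 (6 each). Among 24 genes of hypoxia signalling, 2 were higher and 6 lower (33.3% called, close to the 32.4% of all genes). The mitophagy receptor bnip3la had 37.4, 38.6 and 34.5 CPM in Tinaja ovaries, against 70.8, 68.8 and 81.3 CPM in surface ovaries (-1.0, adjusted p = 5.77e-05). The oxygen-sensing factor hif1ab was lower (157, 167 and 135 CPM, against 208, 179 and 229 CPM; -0.43, adjusted p = 0.0125; lost without surface control 3, 0.0538, or Tinaja control 3, 0.0520). Its copy hif1aa, named after its values were seen, had 2.50, 2.44 and 2.34 CPM in Tinaja ovaries, against 21.0, 45.3 and 56.6 CPM in surface ovaries (-4.07, adjusted p = 0.0139, or 0.0819 with limma voom). The 2 higher members were 0 without surface control 1 or Tinaja control 1 or 2, and 1 without surface control 3.

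Of 33 genes of xenobiotic enzymes and pumps, 3 were higher and 7 lower, with 30.3% called near the 32.4% of all genes. The pump gene ABCC12 had 34.0, 36.2 and 22.0 CPM in Tinaja ovaries, against 331, 236 and 293 CPM in surface ovaries (log2 fold change -3.22, adjusted p = 3.52e-07). The cytochrome gene cyp4t8 was higher (3.24, 3.87 and 4.54 CPM, against 0.241, 0.543 and 1.51 CPM; 2.34, adjusted p = 0.00593; 3.27 without surface control 3).

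Chromatin genes were called lower more often than higher: of 82 genes of DNA methylation and histone modification, 7 were higher and 20 lower (24.4% lower, against 16.4% of all genes), with a median of -0.11. Suz12a, a core subunit of the Polycomb complex, had 116, 128 and 111 CPM in Tinaja ovaries, against 172, 174 and 173 CPM in surface ovaries (log2 fold change -0.55, SE 0.0742, adjusted p = 0.000184). The histone methyltransferase KMT2D had 765, 682 and 640 CPM, against 974, 954 and 955 CPM (-0.47), and the demethylase KDM2A was lower by a like amount (-0.41). Tet3, which oxidises methylated DNA, was higher, with 10.4, 8.61 and 8.93 CPM, against 1.93, 3.12 and 2.19 CPM (1.95, adjusted p = 0.0013). Dnmt1, which copies DNA methylation at replication, averaged 2842 ± 272 CPM in Tinaja ovaries and 2428 ± 126 CPM in surface ovaries (0.23, adjusted p = 0.0407), a call lost without surface control 1 (0.130) or 3 (0.0974) or Tinaja control 2 (0.0606) or 3 (0.124). Without Tinaja control 3, 4 members were higher.

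Of 63 DNA repair genes, 8 were higher and 7 lower (23.8% called, against 32.4% of all genes). Cry5, described above, was among the higher members, and the recombination gene xrcc3 was lower (14.1, 14.6 and 17.7 CPM in Tinaja ovaries, against 41.1, 28.5 and 35.8 CPM in surface ovaries; log2 fold change -1.18, adjusted p = 0.000136). Ddb2, a sensor of ultraviolet damage, was not called. There were 2 lower members without surface control 2 and 4 without Tinaja control 1 or 2. Of 67 cell cycle genes, 8 were higher and 5 lower (19.4% called, also under the 32.4% of all genes). The motor protein cenpe had 930, 986 and 974 CPM in Tinaja ovaries, against 1357, 1782 and 1815 CPM in surface ovaries (-0.78, adjusted p = 8.50e-05), mcm5 of the replication helicase 189, 175 and 179 CPM, against 258, 261 and 305 CPM (-0.60), and e2f6 76.0, 82.6 and 85.6 CPM, against 51.5, 59.7 and 57.4 CPM (0.54). Without surface control 2 or Tinaja control 1, 3 members were lower.

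Genes named for the eye were mostly below the level needed for a test. Of 105 such genes in the table, 22 had enough reads to be tested, and 7 were higher and 5 lower (54.5% called, against 32.4% of all genes). LRAT, which stores vitamin A as an ester, had 4.85, 4.59 and 4.25 CPM in Tinaja ovaries, against 26.3, 30.3 and 25.5 CPM in surface ovaries (log2 fold change -2.58, adjusted p = 9.21e-07). A gene of the same enzyme, lrata, looked up after these values were seen, was higher, with 7.80, 0.287 and 1.90 CPM in Tinaja ovaries and no surface read. It was at least 25.3-fold higher (8.32-fold without Tinaja control 1 and 16.1-fold without surface control 1), with an adjusted p of 0.0400 that was 0.0609 to 0.112 without any 1 library but Tinaja control 2 and 0.0583 in the fit of the 6 control libraries alone. The water-channel gene mipa had 0.588, 0.143 and 0.293 CPM, against 4.34, 4.61 and 3.84 CPM (-3.58, adjusted p = 0.000454; -4.19 without Tinaja control 1). Crybb1l3, a lens crystallin gene, was higher (9.41, 18.5 and 35.3 CPM, against 1.81, 4.48 and 2.06 CPM; 2.92, adjusted p = 0.00298; 2.33 without Tinaja control 3). Both genes named gnb3b, a subunit of phototransduction, were higher, with ratios of 40.9 (13.6 to 201) and 42.4 (7.16 to 1716), or 83.6 (14.7 to 3333) and at least 9.63-fold without surface control 3, and 27.1 (4.57 to 1096) for the second without surface control 1. Reads shared between them make the separate values uncertain. There were 3 lower members without surface control 1 or Tinaja control 1 or 2.

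Of 31 pigment genes, 4 were higher and 6 lower (32.3% called, close to the 32.4% of all genes). Sox10, the neural-crest factor of pigment cells, had no read in Tinaja ovaries, against 1.57, 1.76 and 3.56 CPM in surface ovaries, at least 15.6-fold lower. Pax7b, a factor of yellow pigment cells in zebrafish, had 19.0, 23.0 and 16.5 CPM in Tinaja ovaries, against 0.362, 0 and 0.823 CPM in surface ovaries (log2 fold change 5.57, adjusted p = 3.84e-05; 6.56 without surface control 3). Oca2, the pigment gene tied to albinism in cave populations, was not called (31.0, 34.6 and 36.2 CPM, against 28.4, 23.8 and 32.5 CPM; adjusted p = 0.519). Among 5 appetite and melanocortin genes tested, asip2b alone was called, higher in Tinaja ovaries (9.86, 11.6 and 42.3 CPM, against 3.98, 3.94 and 4.52 CPM; 2.35, adjusted p = 0.0184). Its call was lost without surface control 1 (0.0593), 2 (0.0594) or 3 (0.0529) or Tinaja control 3 (0.0581), and the value was 1.37 without Tinaja control 3.

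Protein-folding and degradation genes were called at about the background share. Of 91 heat shock and chaperone genes, 17 were higher and 15 lower, with dnajc10 of the endoplasmic reticulum lower (58.8, 58.7 and 60.8 CPM in Tinaja ovaries, against 118, 120 and 124 CPM in surface ovaries; log2 fold change -1.02, adjusted p = 4.60e-06) and dnajb6b higher (27.1, 28.3 and 22.7 CPM, against 11.2, 8.69 and 8.36 CPM; 1.46). Of 91 autophagy and lysosome genes, 15 were higher and 13 lower. Proton-pump subunits differed in opposite directions, with atp6v1aa higher (68.2, 65.0 and 92.2 CPM, against 20.6, 20.4 and 19.1 CPM; 1.91, adjusted p = 7.11e-05) and atp6v1b2 lower (8.68, 10.8 and 10.7 CPM, against 34.7, 36.4 and 30.8 CPM; -1.76, adjusted p = 4.53e-06). Without surface control 3, 9 were higher, and without Tinaja control 3, 8 were lower.

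Of 27 genes of yolk and its uptake, 2 were higher and 4 lower (22.2% called, against 32.4% of all genes). The yolk-cutting protease ctsd was higher (413, 383 and 436 CPM in Tinaja ovaries, against 269, 324 and 306 CPM in surface ovaries; log2 fold change 0.45, adjusted p = 0.000614), and the yolk receptor vldlr was not called (561, 571 and 672 CPM, against 669, 599 and 616 CPM). LRP8, a relative of that receptor, had no read in Tinaja ovaries, against 1.69, 0.543 and 3.56 CPM in surface ovaries, at least 13.2-fold lower, or 8.71-fold without Tinaja control 2 and 7.89-fold without surface control 3. Without surface control 1 or Tinaja control 1 or 3, 1 member was higher.

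**Figure D4:**
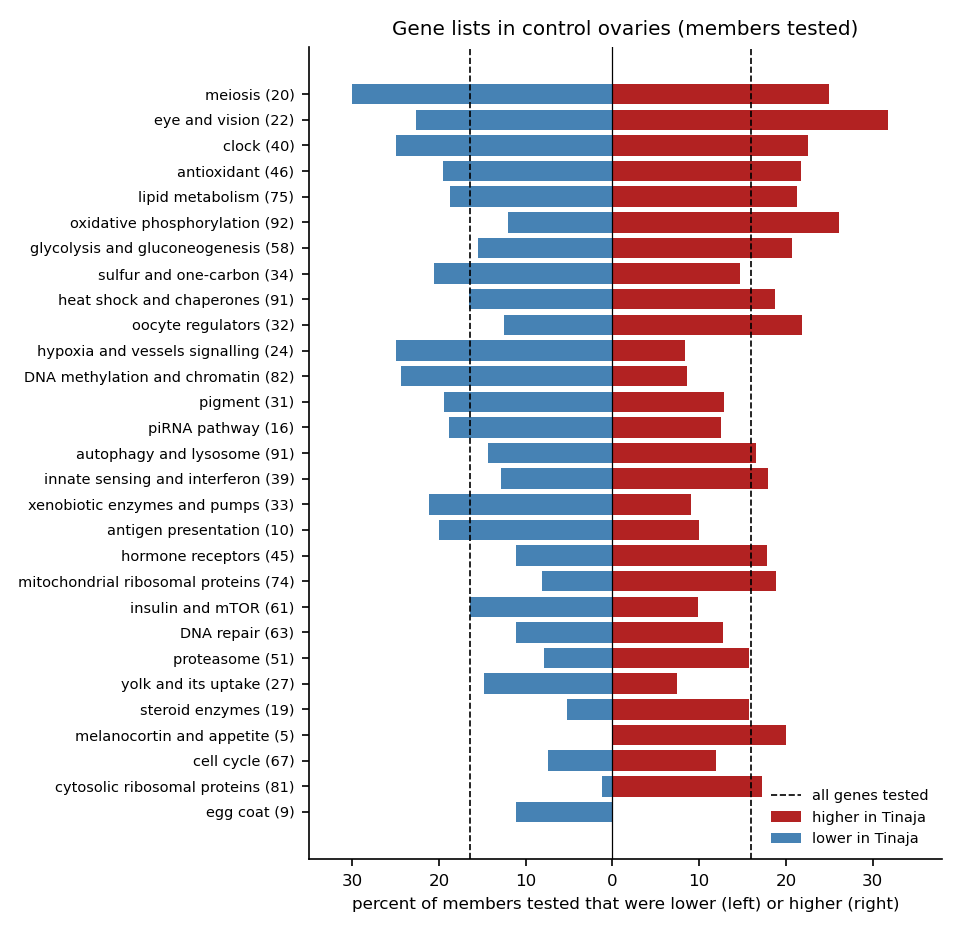
Percent of the tested members of 29 gene lists that were called higher in Tinaja ovaries (red, right) or lower (blue, left), with dashed lines at the shares of all genes tested, 16.0% and 16.4%; the number of members tested follows each name. Cytosolic ribosomal proteins stand at 1.23% lower. The meiosis, eye, clock, lipid and antioxidant lists reach past the dashed lines on both sides, as does heat shock, barely so on the left (16.5%).

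Immune genes included sting1, the adaptor of DNA sensing, with 15.3, 20.9 and 13.8 CPM in Tinaja ovaries, against 0.241, 0 and 0.137 CPM in surface ovaries, a ratio of 128 (43.4 to 623), or 245 (43.7 to 9700) without surface control 1. Of 39 genes of innate sensing, 7 were higher and 5 lower (30.8% called, close to the 32.4% of all genes). The cytokine receptor il6st was lower (29.0, 23.7 and 20.8 CPM, against 49.4, 59.3 and 52.8 CPM, log2 fold change -1.14, adjusted p = 5.74e-05). Higher members numbered 4, 3 and 4 without surface control 2, surface control 3 and Tinaja control 3, and lower members 2 without Tinaja control 2 and 3 without any other library. Of 10 genes of antigen presentation, 1 was higher and 2 lower (30.0% called), the clearest being psme2. Their numbers were 0 higher without surface control 2 or Tinaja control 1 or 3, and 1 lower whichever library was left out, except Tinaja control 2.

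Markers of macrophages and stroma had more higher than lower calls, in small numbers. Of 19 macrophage and neutrophil markers tested, 5 were higher and 0 lower (26.3% higher, against 16.0% of all genes), with PTPRC, a surface protein of all leukocytes, at 11.6, 7.17 and 9.22 CPM in Tinaja ovaries, against 1.69, 1.22 and 0.411 CPM in surface ovaries (log2 fold change 3.04, adjusted p = 0.00436). The summed level of the 33 markers overlapped, with 180, 84.4 and 115 CPM in Tinaja control 1 to 3 and 144, 45.2 and 42.9 CPM in surface control 1 to 3. There were 2 higher members without surface control 2 or 3 and 1 without Tinaja control 1 or 3, and 1 was lower without surface control 3. Of 20 stroma markers, 4 were higher and 1 lower (a share called under the 32.4% of all genes, and a share higher near the 16.0%), with a median log2 fold change of 1.35 and summed levels over 30 genes of 1113, 590 and 740 CPM in Tinaja ovaries and 507, 444 and 579 CPM in surface ovaries. The fibronectin gene fn1b had 70.8, 60.5 and 60.3 CPM in Tinaja ovaries, against 14.6, 7.6 and 11.7 CPM in surface ovaries (2.50, adjusted p = 5.09e-05) and the fibrillin gene FBN1 130, 122 and 122 CPM, against 28.8, 31.8 and 46.2 CPM (1.81). Without Tinaja control 2, 10 stroma markers were higher, and without surface control 2, surface control 3 or Tinaja control 1, 2 were. The part of stroma or leukocyte content in other results was not tested.

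Muscle markers were called in both directions. Of 12 smooth muscle markers, 2 were higher and 1 lower, a share called under the 32.4% of all genes. Their share called higher was near the 16.0% of all genes. A positive log2 fold change was seen in 10 of the 12, with a median of 0.90. The summed level of the 16 smooth muscle markers in the table was 180.8 to 203.9 CPM in Tinaja ovaries and 107.5 to 151.6 CPM in surface ovaries. The part of smooth muscle content in other results was not tested. The myosin gene myh11a had 40, 48.2 and 44.9 CPM in Tinaja ovaries, against 7.6, 6.11 and 8.36 CPM in surface ovaries (log2 fold change 2.59, adjusted p = 3.13e-05). Of 10 skeletal muscle markers, 0 were higher and 5 lower (50.0% lower, against 16.4% of all genes), or 3 lower without Tinaja control 2. The creatine kinase ckmb had 3.83, 7.32 and 7.32 CPM in Tinaja ovaries, against 26.9, 16.1 and 21.9 CPM in surface ovaries (-1.81, adjusted p = 0.000379). The skeletal muscle markers summed to 127 to 252 CPM in Tinaja ovaries and 221 to 241 CPM in surface ovaries, and TNNC2, TNNI2, myl1, mylpfa, myod1, pvalb1 and pvalb4 had no read in the 6 libraries. Of 7 liver markers, 0 were higher and 1 lower (14.3% called, against 32.4% of all genes). The lower one was the fibrinogen chain fgg (0.294, 0 and 0.293 CPM, against 8.20, 8.82 and 11.5 CPM, log2 fold change -5.50, adjusted p = 5.17e-06).

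The remaining marker lists were short, and their counts read against 32.4% of all genes called. Of 6 lymphocyte markers, 2 were higher and 2 lower (66.7% called). There were 2 higher and 2 lower of 14 red blood cell markers (28.6%), 3 higher and 3 lower of 21 epithelial markers (28.6%), 1 higher of 7 fat cell markers, 1 lower of 5 sperm markers and 0 of 6 vessel markers. The log2 fold change was positive in 7 of 7 fat cell and 5 of 6 vessel markers. Fat cell markers summed to 125 to 236 CPM in Tinaja ovaries and 78.0 to 91.6 CPM in surface ovaries. Vessel markers summed to 38.3 to 40.8 and 23.1 to 27.7 CPM, and lymphocyte markers, lower in Tinaja ovaries, to 13.5 to 15.5 and 15.7 to 17.2 CPM. Sums of the red blood cell, epithelial and sperm markers overlapped. The part of cell makeup was not tested. The epithelial protease inhibitor spint1a was lower, with 56.6, 57.7 and 46.1 CPM in Tinaja ovaries, against 195, 188 and 215 CPM in surface ovaries (log2 fold change -1.90, adjusted p = 4.52e-07). The embryonic-type globin gene HBE1 was lower (3.38, 4.45 and 4.39 CPM, against 26.0, 22.2 and 26.2 CPM; -2.60, adjusted p = 7.25e-05). With 1 library left out, the fat cell call was lost without surface control 1 or 3 or Tinaja control 1 or 3 and became 2 without Tinaja control 2. In the same way, 1 red blood cell marker was higher without surface control 3 or Tinaja control 3, 1 lymphocyte marker was lower without Tinaja control 2, 2 sperm markers were lower and 1 liver marker was higher without surface control 1.

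Some genes were high in only some Tinaja ovaries. These were picked after their values were seen. The transcription factor gene glis3 had 2.21, 54.5 and 32.1 CPM in Tinaja control 1, 2 and 3, against 0, 0.136 and 0.548 CPM in surface ovaries (log2 fold change 6.98, SE 1.27, adjusted p = 0.0028; 6.19 to 8.52 with 1 library left out, lowest without Tinaja control 2, highest without surface control 3, and 6.37 without surface control 1). HEPH, an iron-oxidising enzyme, had 1.18, 34.6 and 19.6 CPM in Tinaja ovaries, against 0.241, 0.136 and 0.137 CPM in surface ovaries (6.60; 5.77 without Tinaja control 2), and pkhd1l1.2 3.97, 50.6 and 50.8 CPM, against 0.603, 0.271 and 0 CPM (6.78; 7.84 without surface control 1). The clock output gene hlfa shared this shape, with 3.38, 35.7 and 19.6 CPM in Tinaja ovaries, against 2.89, 2.17 and 2.47 CPM in surface ovaries (2.95, adjusted p = 0.0165). Its call was lost without surface control 2 (0.0580) or 3 (0.0545) or Tinaja control 2 (0.0509, with a value of 2.18). Tinaja control 1 was the low library in all 4 genes, and it is also the Tinaja library that stood apart on the second principal component. That component was drawn from variable genes of the same libraries in which these genes were picked, so neither observation supports the other. With limma voom the 4 genes were not called (adjusted p 0.205 for glis3, 0.193 for HEPH, 0.179 for pkhd1l1.2 and 0.141 for hlfa).

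Copies of a gene and neighbours in the genome give a further view of the calls. Among 729 pairs of tested genes whose symbols differ only in a closing a or b, 78 had both copies called, 41 in the same direction and 37 in opposite directions. Of the 1458 genes in these pairs, 33.5% were called, close to the 32.4% of all genes. The number of such pairs among unrelated genes was not worked out, so the pair counts are not read as a result about copies. Of the 78 pairs with both copies called, 8 differed at least 2-fold in the same direction in both copies and 5 in opposite directions. Among the 5 is the sodium-pump subunit pair atp1a3a and atp1a3b. Atp1a3a had 4.12, 5.45 and 4.68 CPM in Tinaja ovaries, against 30.6, 22.7 and 36.3 CPM in surface ovaries (log2 fold change -2.65, adjusted p = 2.40e-06), and atp1a3b 34.1, 77.2 and 56.5 CPM, against 3.13, 1.76 and 7.95 CPM (3.71, adjusted p = 0.000461; 4.49 without surface control 3). Another is the fat-burning receptor pair, with pparab higher (14.7, 16.2 and 15.1 CPM, against 4.82, 4.75 and 2.74 CPM; 1.89) and pparaa lower (2.06, 1.29 and 2.05 CPM, against 6.87, 4.21 and 3.56 CPM; -1.44, adjusted p = 0.0144). The pparaa call was lost without surface control 1 (0.0639) or Tinaja control 2 (0.0558). The pairs were picked after their values were seen, and the names alone do not establish that 2 genes are copies.

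Neighbours were taken from the RefSeq annotation of the assembly AstMex3_surface, which held 9198 of 10712 genes with a symbol of their own (85.9%). Of 4175 neighbouring pairs of tested genes, 24 had both genes called with at least a 4-fold difference, 14 in the same direction and 10 in opposite directions; of the matched genes, 5.94% were called with such a difference. Tgm2b, described above, stood beside quo, which had 25.6, 24.4 and 44.9 CPM in Tinaja ovaries, against 0.241, 0.136 and 0.137 CPM in surface ovaries (log2 fold change 7.38). The prostaglandin-making gene ptgs2a (8.83, 13.8 and 4.25 CPM, against 0.121, 0.407 and 0 CPM; 5.55, or 6.80 without surface control 2) stood beside pla2g4aa, whose enzyme frees the fatty acid that it uses (2.06, 3.44 and 1.61 CPM, against 0, 0.136 and 0.137 CPM; a ratio of 27.3, 7.17 to 232, or 17.4, 4.58 to 148, without surface control 1). Sqor, described above, stood beside ATP8B4, also lower (-5.21). Among the pairs in opposite directions, sytl1 (-3.29) stood beside fkbp9 (2.18) and tp63 (-4.50) beside tprg1 (3.50). These pairs were picked after their values were seen.

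The same contrast in the 6 starved libraries, which share no library with the control contrast, called 5894 of the 14627 genes (40.3%), 2963 higher (20.3%) and 2931 lower (20%) in Tinaja ovaries. Both contrasts came from the same fit of the 12 libraries and shared its estimate of spread for each gene. The calls in the feeding states therefore did not come from separate tests. Of the 4738 genes called in control ovaries, 3286 (69.4%) were called again in the same direction, 1445 were not called and 7 were called in the opposite direction. Those 3286 are 55.8% of the starved calls. The sign was shared by 4476 of the 4738 (94.5%). Genes with at least a 4-fold difference in control ovaries were called again in 1019 of 1217 cases (83.7%), and those under 2-fold in 1584 of 2618 (60.5%). Across all genes tested, the log2 fold changes correlated at 0.865, given as a description because genes are not independent replicates.

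The test of the difference between the contrasts called 10 genes (0.0684%), 3 with a higher and 7 with a lower value in starved fish, and 2264 genes at an unadjusted p under 0.05. With 1 library left out it called 52 genes without surface control 1, 26 without Tinaja control 1, 22 without surface starved 3, 21 without Tinaja starved 1, 16 without surface starved 1 or 2, and 8 to 11 otherwise, and DESeq2 called 270. Slc38a4 had log2 fold changes of 4.73 in control and 4.76 in starved fish, KNTC1 -2.71 and -2.99, and CDH13 -8.91 and -9.11. Of the 19 clock genes called in control fish, 13 were called again in the same direction in starved fish. That share was near the 69.4% of all control calls. Arntl2 had -1.60 in control and -0.97 in starved fish, and clockb -1.0 in control and -0.18 in starved fish, where it was not called. Neither difference between feeding states was called, which does not show that the contrasts were equal.

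Some lists had unlike counts in the feeding states, by small amounts per gene. Of the 81 genes for cytosolic ribosomal proteins, 66 had a positive log2 fold change in control fish (median 0.17; 14 called higher and 1 lower), whereas 4 did in starved fish (median -0.24; 1 called higher and 32 lower). Of 9 egg-coat genes, 2 were positive in control fish and 0 in starved fish, where 8 were called lower. For oxidative phosphorylation, 63 of 92 were positive in control fish and 33 in starved fish. The difference between feeding states was called for 0 members of these 3 lists. The granulosa markers had a median of 0.61 in control fish and 2.21 in starved fish, with 2 and 5 of 9 called higher, and also 0 called differences.

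**Figure D5:**
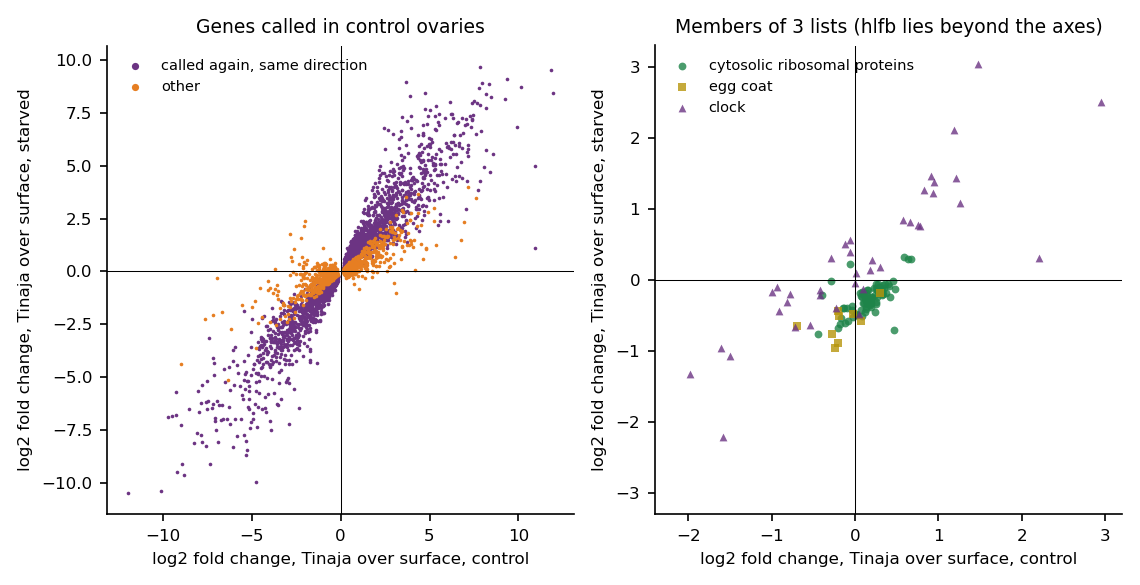
Log2 fold change of Tinaja over surface ovaries in control fish (horizontal axis) and in starved fish (vertical axis), with 1 point per gene. The left panel holds the 4738 genes called in control fish, with the 3286 called again in the same direction in purple and the rest in orange. In the right panel the 81 ribosomal protein genes mostly lie right of 0 and below 0. Clock genes lie on both sides of 0 on both axes, with 21 of 40 positive in control and 23 in starved fish.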

How the data were processed

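RNA of 12 ovaries was sequenced from directional, ribosomal-RNA-depleted libraries, per the labels' protocols. STAR 2.7.10b and RSEM are listed in the submitters' processing notes, with no role stated for either; genome build, annotation and counting strand were not given in the sources used here. The authors deposited whole-number read counts per gene, which were the values tested, and a table of scaled signal. That deposited signal equals TMM-scaled CPM of the counts within a relative difference of 5e-15, and 100% of its values gave whole reads within 0.001. The rows of unmapped, multimapping, ambiguous and unassigned reads were left out. Unmapped reads were 7.82% to 9.98% of reads in Tinaja control libraries and 7.28% to 8.58% in surface control libraries.

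Genes were kept with filterByExpr at a minimum count of 10, which left the 14627 genes of the deposited signal table among 27420. EdgeR 4.0.16 (R 4.3.3) fitted a robust quasi-likelihood model with TMM factors and 1 mean for each of 4 groups to the 12 libraries, and p-values were adjusted with Benjamini-Hochberg over all genes tested, at a threshold of 0.05. The median SE of a log2 fold change was 0.173, with 8 residual degrees of freedom. In 1 simulated set with 200 changed genes, 56% of 2-fold and 75% of 4-fold changes were called, and 7.75% of calls were false. Far fewer genes were changed in that set than were called in the data, so these shares do not give the power of this contrast. In a group without reads, 3 counts over the group gave the bound (3 counts are 0.362 to 0.441 CPM in a single library); with 1 to 3 reads, the ratio has an exact 95% counting interval, which covers counting error only.

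Members and lists were chosen with earlier results of these data known. The naming rule took the 12 largest rises and falls among called genes with a symbol, at least 1 CPM and no overlap; the 8 smallest adjusted p in each direction at 20 CPM or more; up to 4 called genes per list and direction; and 26 key genes, of which 23 were tested. Of the 286 genes so named the text describes a part, mostly those that kept their call with any 1 library left out. Of the 269 called genes among the 286, 52 lost their call without at least 1 of the control libraries. Alternatives were DESeq2 1.42.0, limma voom 3.58.1, other scalings and filters, thinning, a replicate block, a fit of 6 libraries and each library left out. The recovered reads, the list counts and the bounds with a library left out were added after seeing the data. Sequences were not used here. Results for some genes are not reported here.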

Additional observations from a re-analysis of the deposited data

Results flagged for a closer look

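The contrast of Tinaja over surface ovaries differed between starved and control fish in 10 genes by a test of the difference itself (edgeR's quasi-likelihood test, Benjamini-Hochberg), and 5 of them carry an identifier alone. Values below are the starved contrast minus the control contrast on the log2 scale. Spg11, a gene of lysosome turnover in neurons, differed by -0.867 (adjusted p = 0.0115). It had 107, 106 and 96.8 CPM in starved Tinaja and 76.7, 77.0 and 83.0 CPM in starved surface ovaries, and 107, 98.6 and 105 CPM in control Tinaja and 43.5, 46.7 and 39.5 CPM in control surface ovaries. SHANK3, a scaffold of synapses, differed by -4.17 (adjusted p = 0.0115), with 5.44, 3.72 and 6.24 CPM in starved Tinaja and 8.69, 9.37 and 13.2 CPM in starved surface ovaries, and 5.15, 6.60 and 6.88 CPM in control Tinaja and 1.21, 0.407 and 0.411 CPM in control surface ovaries. In both genes the Tinaja values overlapped between feeding states and the surface values did not.

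BAHCC1, a chromatin protein, differed by 1.05 (adjusted p = 0.0130), with 83.0, 75.3 and 99.3 CPM in starved Tinaja and 118, 113 and 130 CPM in starved surface ovaries, and 45.3, 50.7 and 49.6 CPM in control Tinaja and 135, 139 and 150 CPM in control surface ovaries. Letm1, a mitochondrial ion exchanger, differed by 1.19 (adjusted p = 0.0192; 0.0573 to 0.0697 without surface control 2 or 3, Tinaja control 2 or 3 or Tinaja starved 3, and 0.0543 with a replicate block). It was called lower in control Tinaja ovaries (log2 fold change -0.61) and higher in starved ones (0.58). PM20D2 differed by -3.66 (adjusted p = 0.0192; 0.0511 to 0.0857 without surface control 3, Tinaja control 2 or 3, or Tinaja starved 2 or 3, and 0.189 with limma voom), and was called higher in Tinaja ovaries in both states (2.37 in starved and 6.03 in control fish).

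Among genes without a symbol, ENSAMXG00000032655 differed by -9.81 (adjusted p = 2.90e-06), with 28.8, 30.4 and 30.9 CPM in starved Tinaja and 13.3, 15.8 and 12.4 CPM in starved surface ovaries, and 30.0, 33.3 and 34.5 CPM in control Tinaja ovaries and no read in control surface ovaries. ENSAMXG00000001654 differed by -1.0, ENSAMXG00000031665 by 5.30, ENSAMXG00000016415 by -8.34 (no read in starved Tinaja ovaries; adjusted p 0.0130, and 0.189 with limma voom) and ENSAMXG00000038070 by -5.97 (no read in control surface ovaries; adjusted p 0.0383, and 0.0661 to 0.191 under 10 of the alternatives). Fitted values against a group without reads depend on the prior count and are no bounds. What lies behind these differences was not tested.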

How the results depend on the processing

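The number of genes called in control ovaries was 3914 (minimum count of 50) to 4933 (DESeq2) under the other settings and 3708 to 4039 with 1 library left out, and in starved ovaries 4710 to 5093 with 1 library left out. A fit of the 6 control libraries alone, without the spread of starved fish, called 4131 genes. The calls for the difference between feeding states numbered 270 with DESeq2 and 8 to 52 with 1 library left out, and the cause was not tested. Of the genes called by the main test, DESeq2 gave an adjusted p for spg11, BAHCC1 and ENSAMXG00000001654 and none for the others. Genes at least 2-fold apart numbered 1268 at a minimum count of 50, where fewer genes were tested, and 1810 to 1936 with 1 library left out. Genes read in 1 population alone numbered 22 (Tinaja) and 27 (surface) at 10 reads per library. Upper-quartile scaling made 54.9% of calls higher, against 49.5%, with a median of 0.04. With a replicate block the 3 counts were 4377, 5430 and 10; same-numbered control libraries correlated at 0.0406, 0.051 and -0.0577 in their deviations, so the numbers were not taken to pair them. With that block GABRR3 (adjusted p 0.0825), impdh1a (0.074), bmp15 (0.0589) and dnmt1 (0.0536) lost their call and gdf9 (0.0493) gained it.

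Values that changed sign belong to genes that were not called. With 1 library left out the log2 fold change ranged from -0.0981 to 0.00941 for ENSAMXG00000001654, from -0.00213 to 0.209 for insra, from -0.0839 to 0.353 for vwf, from -0.688 to 0.0448 for cpt1aa, from -0.0204 to 0.25 for zar1, from -0.0754 to 0.716 for a BAHCC1 copy and from -0.216 to 0.524 for cyp19a1a (-0.0609 with limma voom). The recovered reads, added after seeing the data, called the same 4738 genes. Genes under about 3 CPM could be called only for differences of at least 2-fold.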
